A study of Mus musculus with 6 samples.

Results

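Vector control tumours of G422, a mouse glioblastoma cell line, were described from 3 of the 6 RNA sequencing libraries of a study on Ngb, the gene of neuroglobin. The members were chosen by label as the 3 libraries titled shVec, and all genes were kept, so that neither the tumours nor the genes were picked by a measured value. Each library came from a tumour that grew under the skin of a Kunming mouse, an outbred stock, after inoculation of G422 cells that had received the control vector by lentivirus. No further treatment is given, the treatment label reads untreated, and sex and age are not given. The control cells thus carried an integrated vector. Unmodified G422 cells and cells in culture were not analysed here. The design text calls the tumours independent, whether each grew in its own mouse is not stated, and every p-value below concerns only the spread among these 3 tumours.

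A tumour under the skin mixes malignant cells with cells of the host, among them vessels, fibroblasts, macrophages and lymphocytes, and its RNA is the sum of all of them. Glioblastoma is a tumour of glial appearance, and its cell lines can keep genes of neural progenitors, such as the intermediate filament nestin, and lose genes of mature astrocytes. Cells of the tumour and of the host answer interferon with a shared set of genes, which includes antiviral proteins, immunity-related GTPases and the machinery that presents peptides on major histocompatibility complex (MHC) molecules. In bulk libraries of this kind fewer cells of a type and less RNA per cell cannot be told apart.

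The libraries held 22427004, 20005933 and 19630319 reads assigned to genes in tumours 1, 2 and 3. Between 22284 and 22409 genes had a read in a library, 25551 had one in any of the 3 and 19393 in all of them. Genes of the mitochondrial genome took 1.27% to 1.41% of the reads and the 10 highest genes 4.12% to 4.38%, so no library was taken over by a few transcripts. A gene without a read in all 3 libraries lay below 0.0483 CPM (read counts scaled to a common library size), the level that 3 reads of the combined total would give. That limit covers counting error only.

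Levels are given as FPKM, fragments per kilobase of gene scaled to the size of the library, which sets genes of different length on 1 scale. The median over genes with a read was 0.766 FPKM, and 12103 genes, 10305 of them protein-coding, had a mean of at least 1 FPKM. Above that the number of genes fell steeply, with 5466 at 10 FPKM or more, 468 at 100 or more and 20 at 1000 or more. The 468 genes of at least 100 FPKM made up 46.1% of the summed FPKM of tumour 1. Percentiles below rank a gene by its mean FPKM among the 25551 genes with a read.

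Differences among the tumours were tested in the 13222 genes with a mean of at least 1 CPM. That mean includes the highest tumour, so a low gene can enter the test through its level in 1 tumour. A gene is said below to differ at least 2-fold when its highest CPM was at least 2 times its lowest and the spread exceeded read counting error (edgeR likelihood ratio test, adjusted p under 0.05). This held for 885 genes, or 6.69% of those tested, the share beside which counts in a list stand. The share was higher in low genes, with 23.8% at 1 to 5 CPM and 0.207% at 100 to 500 CPM. With 1 tumour left out it was 2.96% without tumour 1, 2.83% without tumour 2 and 4.6% without tumour 3, and those shares stand beside the counts that leave out a tumour.

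**Figure D1:**
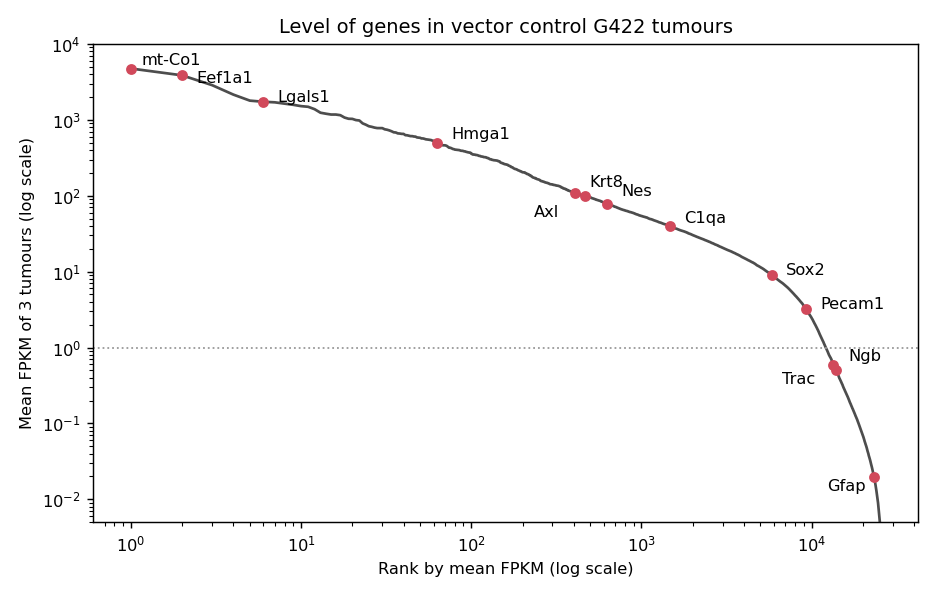
Mean FPKM of the 3 vector control tumours (vertical axis, log scale) against the rank of the gene (horizontal axis, log scale), with 13 genes named in the text as red points and a dotted line at 1 FPKM. The curve falls from mt-Co1 at the top, and Gfap lies near its lower end while Nes and Axl are near 100 FPKM.

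The protein-coding gene of highest level was mt-Co1, a subunit of cytochrome c oxidase encoded in the mitochondria, at 4900, 4934 and 4411 FPKM in tumours 1, 2 and 3. Next came Eef1a1, the elongation factor that brings aminoacyl-tRNA to the ribosome, at 3965, 3722 and 3894 FPKM. Ribosomal protein genes made up 18 of the 30 highest protein-coding genes and 45 of the 100 highest, among them Rplp1 at 3038, 2682 and 2881 FPKM. They took 5.79% to 6.21% of the reads of a library.

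Among the other genes at the top, Lgals1, which encodes the secreted lectin galectin-1, had 1741, 1746 and 1709 FPKM, or 1732 ± 20.4 FPKM (mean ± SD, n = 3). Vim, the intermediate filament of mesenchymal cells and of immature glia, had 1097, 1027 and 966 FPKM. The cytokine gene Mif reached 1006, 963 and 974 FPKM. Chaperones and the cytoskeleton were represented by Hsp90ab1 at 1483, 1360 and 1305 FPKM and by Actg1, a cytoplasmic actin, at 838, 755 and 742 FPKM. None of the 100 highest protein-coding genes differed at least 2-fold between tumours.

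With predicted genes and pseudogenes left out, the highest non-coding genes were mitochondrial transfer RNAs, mt-Tp at 329, 337 and 263 FPKM and mt-Tl2 at 253, 257 and 289.6 FPKM. Malat1, a long RNA of nuclear speckles, had 58.9, 69.3 and 82 FPKM, and Snhg8, which hosts a small nucleolar RNA, had 78.5, 83.2 and 100.1 FPKM. The mitochondrial ribosomal RNA genes mt-Rnr2 and mt-Rnr1 had 87.3, 99.2 and 83.8 FPKM and 86.3, 74.2 and 47.7 FPKM. For Malat1 the order of the tumours was 1, 2 and 3, whereas mt-Rnr1 had the opposite order.

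Some of the deposited levels depend on how reads were shared between near-identical sequences, because 16 of the 100 highest genes of any kind were processed pseudogenes that matched a parent gene at 98.2% identity or more. Gm13394, a copy of the glycolytic gene Gapdh with 99.9% identity over 1000 bases, stood at 679, 662 and 640.1 FPKM, far above Gapdh itself at 7.69, 30.2 and 5.69 FPKM. Rps2-ps13 had a mean of 1578 FPKM beside 25.6 FPKM for its parent Rps2, a protein of the small ribosomal subunit. Gm12191 had a mean of 1703 FPKM beside 18.4 FPKM for Rpl30. The levels of such parent genes are uncertain.

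Gapdh was also followed across the tumours, alone and with its copies. Its own CPM was 31.6 in tumour 1, 124 in tumour 2 and 23.4 in tumour 3, a range of 5.32-fold. Summed with its 76 near-identical copies, of which 62 had reads, it came to 730, 812 and 680 CPM. The copies hold most of the reads of this sequence, and the sum varies less in proportion than Gapdh alone. Gm13394, the largest copy, had 675, 659 and 636 CPM in tumours 1, 2 and 3, and the sum kept its highest value in tumour 2. Whether read sharing made the range of Gapdh was not tested.

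Genes of the mitochondrial genome, which is transcribed as long precursors and has copies in the nuclear genome, were uneven in level. Beside mt-Co1, the genes mt-Cytb and mt-Nd1 had 2031, 2293 and 2131 FPKM and 1404, 1158 and 1053 FPKM. By contrast mt-Co2 had 42.4, 65.9 and 35.2 FPKM and mt-Co3 11.5, 19.8 and 10.5 FPKM. Near-identical copies held further reads, with 11.3, 15.9 and 13.4 CPM on Gm28661 beside 28.9, 44.9 and 23.9 CPM on mt-Co2. For mt-Co3 the copy Gm28437 had 14.2, 15.8 and 15.8 CPM beside 8.99, 15.4 and 8.21 CPM on the gene. The sums of gene and copies were far below the 6777 to 7591 CPM of mt-Co1. Any reads left out for having several matches would not be in these sums. How reads with several matches were treated is not stated.

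The label of the line was checked against markers of brain cells, and many genes of mature glia and neurons were at or near 0. Gfap, the filament of astrocytes, was listed at 0, 0.0356 and 0.024 FPKM, and the water channel Aqp4 had no read in any tumour. Of 15 astrocyte markers 5 reached a mean of 1 FPKM. The oligodendrocyte lineage factors Olig1 and Olig2 had no read, as was the case for Ptprz1, Gpr17 and Lhfpl3, and 2 of 12 precursor markers reached 1 FPKM. The synaptic genes Syt1 and Snap25 and the neuroblast gene Dcx had no read either, while 3 of 15 neuronal markers reached 1 FPKM, namely Tubb3, a neuronal tubulin, at 9.43, 6.71 and 6.24 FPKM, Gap43, a protein of growing axons, at 3.49, 4.05 and 3.59 FPKM and Nefm, a neurofilament, at 2.07, 2.23 and 1.49 FPKM. The median percentile was 11.2 for the astrocyte list, 1.13 for the oligodendrocyte precursor list, 4.23 for the oligodendrocyte list and 9.49 for the neuron list, with members without a read counted at 0, against a median of 50 over genes with a read. Ranked by median FPKM instead, the 4 values were 20.2, 6.76, 14.8 and 18.3. With 1 tumour left out they lay between 10.5 and 16.6, 3.52 and 5.01, 6.69 and 7.75, and 9.53 and 13.9.

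The astrocyte markers that were present are also active in other cell types. Gja1, the gap junction protein connexin 43, had 57.1, 58.5 and 50.1 FPKM and Sox9, a transcription factor of glial progenitors and of cartilage, had 61.2, 43.1 and 47.3 FPKM. Glul, which encodes glutamine synthetase, had 13.6, 13.2 and 11.3 FPKM. Aldh1l1, a folate enzyme used as an astrocyte marker, differed most among the 5, with 2.36, 0.266 and 0.684 FPKM and a range of 8.7-fold. The 2 precursor markers at 1 FPKM or more, Cspg4 at 24.9, 24.2 and 27.2 FPKM and the receptor Pdgfra at 4.86, 4.24 and 3.79 FPKM, are shared with pericytes and fibroblasts.

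Neural progenitor genes were mixed. Nes, which encodes nestin, had 74.1, 84.6 and 77 FPKM and ranked 626th. The transcription factors Sox2 and Pax6 had 9.87, 7.75 and 9.41 FPKM and 5.98, 4.1 and 5.81 FPKM. Nr2e1 and Sox1, which also mark neural progenitors, had no read, and Prom1 and Hes5 were under 0.1 FPKM in every tumour. The RNA-binding protein gene Msi1 differed 12.5-fold, with 1.56, 0.121 and 1.1 FPKM, and was lowest in tumour 2. Hopx differed 6.69-fold the other way, with 0.24, 1.69 and 0.635 FPKM and the highest level in tumour 2. These were 2 of 6 tested progenitor genes, and 0 of 5 differed at least 2-fold with tumour 2 left out. No melanocyte gene other than Mitf reached 0.1 FPKM, and of 10 Schwann cell and neural crest markers only Egr2 reached a mean of 1 FPKM.

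**Figure D2:**
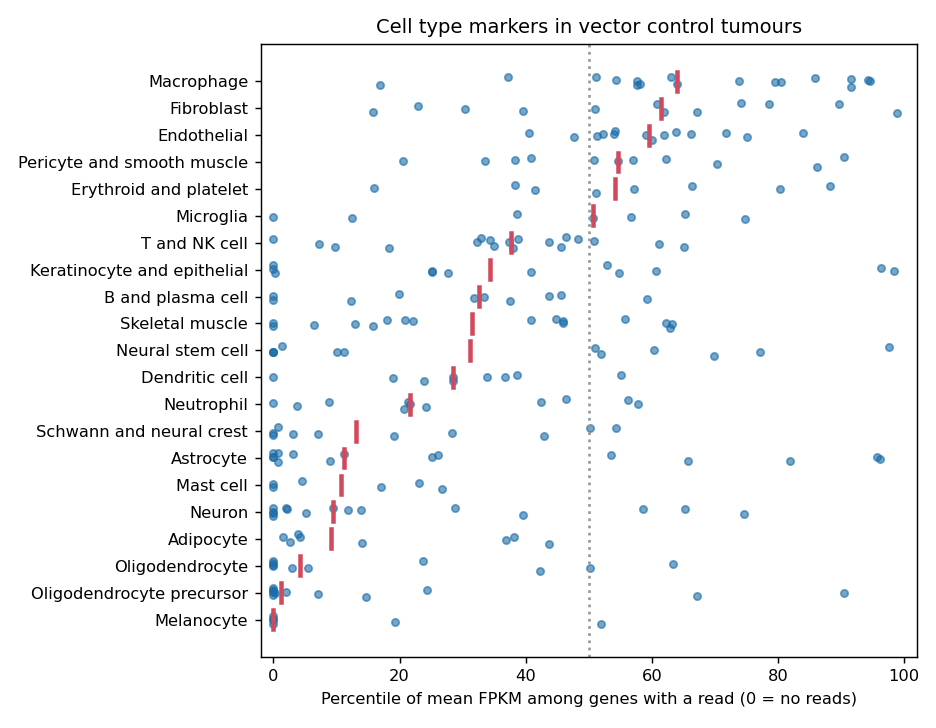
Percentile of mean FPKM (horizontal axis) of every marker of 21 cell type lists (rows), with members as blue points, the list median as a red bar and genes without a read at 0. Macrophage, fibroblast and endothelial lists have medians above the dotted line at 50. Melanocyte, oligodendrocyte lineage, adipocyte, neuron, mast cell and astrocyte lists lie at the bottom.

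Of 22 transcription factors that pattern the early nervous system, 8 had a mean of at least 1 FPKM and 9 had no read. Zic2, a zinc finger factor of the neural tube, had 9.57, 9.64 and 9.97 FPKM, and En1, a factor of the midbrain and hindbrain border and of limb ectoderm, had 9.02, 8.5 and 8.8 FPKM. Dlx2 and Otx1, factors of the forebrain, had 5.71, 5.83 and 5.18 FPKM and 3.48, 2.25 and 3.53 FPKM. Factors of forebrain and midbrain were thus read side by side, and 0 of the 8 tested members differed at least 2-fold between tumours.

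Factors of mesenchyme stood higher, with 18 of 26 at a mean of 1 FPKM or more and a median percentile of 75.1. Fosl1, an AP-1 subunit, had 66.4, 93 and 76.9 FPKM. Twist1, a factor of mesoderm and of epithelial to mesenchymal transition, had 47.7, 60.6 and 52.7 FPKM, and Foxc2 had 27.7, 25.8 and 23.6 FPKM. The muscle factors Myod1 and Pax7 were at or near 0. Of 19 members tested, 1 differed at least 2-fold, the limb factor Prrx2 at 0.37, 0.869 and 0.646 FPKM, and 0 did without tumour 1 or without tumour 2.

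Hox genes, which set position along the body axis and are silent in most of the forebrain, reached a mean of 1 FPKM in 3 of the 4 clusters. Hoxd13, the last gene of its cluster and a factor of distal limbs, had 14.4, 14.5 and 15.7 FPKM, and Hoxd8 had 12.8, 12.1 and 14.6 FPKM. Hoxc10 had 6.85, 3.57 and 7.0 FPKM and Hoxa10 5.25, 3.72 and 4.18 FPKM. In the B cluster 0 of 10 genes reached a mean of 1 FPKM. All 6 tested genes of the C cluster were lowest in tumour 2, and 2 of them, Hoxc4 at 1.8, 0.449 and 1.38 FPKM and Hoxc5 at 0.764, 0.341 and 0.443 FPKM, differed at least 2-fold. In the A cluster 2 of 7 tested genes did, Hoxa7 at 0.505, 0.279 and 0.986 FPKM and Hoxa9 at 0.578, 0.225 and 0.554 FPKM, again with tumour 2 lowest. With tumour 2 left out 0 of 6 genes of the C cluster and 0 of 8 of the A cluster differed at least 2-fold, and with tumour 1 left out 1 of 6 of the C cluster did. Without tumour 3 it was 1 of 7 in the A cluster.

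**Figure D3:**
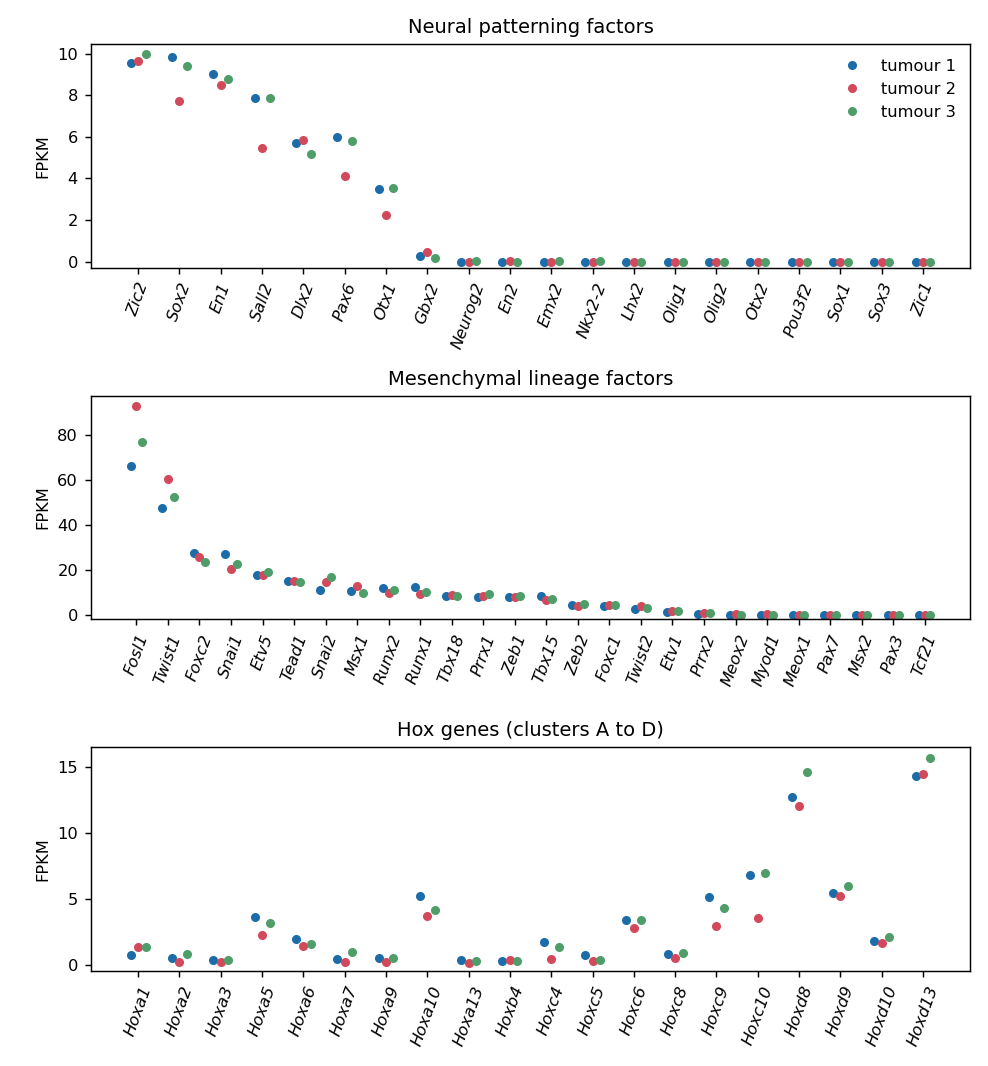
FPKM (vertical axis) of each vector control tumour (colours) for 20 of the 22 neural patterning factors, for mesenchymal lineage factors and the Hox genes with a mean of at least 0.3 FPKM. Zic2 and Sox2 are among the highest of the first panel, Fosl1 and Twist1 the second, and Hoxd13 and Hoxd8 the third.

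Genes of matrix and of the mesenchymal state were among the highest of the transcriptome, and 21 of 22 in the mesenchymal and matricellular list reached 1 FPKM, with a median percentile of 98.0. S100a6, a calcium-binding protein, had 591, 535 and 499 FPKM, and the secreted phosphoprotein gene Spp1, osteopontin, had 400.3, 460.3 and 315 FPKM. Fn1, fibronectin, had 263, 176 and 245 FPKM and the hyaluronan receptor Cd44 had 39.5, 43.4 and 38.2 FPKM. Of 20 collagen genes 18 reached 1 FPKM, led by Col3a1 at 161, 136 and 149.6 FPKM and Col6a1 at 115, 103 and 107 FPKM, and 0 of 19 tested differed at least 2-fold. The 2 chains of type I collagen were lower, with 29.8, 21.1 and 19.7 FPKM for Col1a1 and 9.55, 5.85 and 6.35 FPKM for Col1a2.

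Within the mesenchymal list 4 of 21 tested genes differed at least 2-fold between tumours, beside 1 of 21 without tumour 1 and 1 of 20 without tumour 2. Ccn1 and Ccn2, which encode matricellular proteins and are known targets of YAP, had 47.1, 105 and 122 FPKM and 2.46, 7.43 and 3.91 FPKM, and Thbs1, thrombospondin, had 1.42, 3.42 and 1.83 FPKM. All 3 were lowest in tumour 1. Chil1, a secreted chitinase-like protein used as a marker of mesenchymal glioblastoma, had 0.178, 1.2 and 0.0542 FPKM and was highest in tumour 2.

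Keratins of simple epithelia were present in these tumours. Krt8 had 158, 89 and 80.8 FPKM and its partner Krt18 had 87.1, 45.4 and 40.3 FPKM, a range of 1.95-fold and 2.16-fold with the highest value in tumour 1 for both. A near-identical copy of Krt8 held under 0.3 CPM in every tumour and Krt18 had none, so near-identical copies held almost none of these reads. Epcam, an epithelial adhesion molecule, also was highest in tumour 1, with 2.31, 0.983 and 0.521 FPKM. Keratins of squamous epithelium were low or absent, since Krt5 and Krt1 had no read and Krt14 had 0.103, 0.0855 and 0.0864 FPKM. Cdh1, E-cadherin, had 0.109, 0.0877 and 0.0775 FPKM.

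All 18 tumour suppressor genes examined had a mean of at least 1 FPKM, and 0 of them differed at least 2-fold between tumours. Cdkn2a, which encodes the inhibitor p16 and the ARF protein, had 90.3, 91.5 and 84.1 FPKM and Trp53 had 86.4, 79 and 78.4 FPKM. Smad4, a mediator of TGF-beta signals, had 50.6, 46.1 and 46.6 FPKM, and Nf1, a brake on Ras, had 6.58, 6.68 and 7.64 FPKM. Rb1, the retinoblastoma gene, was the lowest of the list with 1.74, 2.02 and 1.67 FPKM. These are RNA levels, and neither the sequence of a gene nor its protein was measured.

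Of 25 oncogenes and cyclins 22 reached 1 FPKM. Akt1 and Cdk4, a kinase of survival signalling and a kinase of the G1 phase, had 142, 139 and 142 FPKM and 144, 136 and 135 FPKM. Myc had 80.05, 144 and 126 FPKM, a range of 1.79-fold with tumour 1 lowest, whereas Mycn was under 0.1 FPKM in every tumour. Ccnd1 had 38.3, 59.5 and 47.1 FPKM against 0.386, 0.495 and 0.624 FPKM for Ccnd2. Tert, the catalytic subunit of telomerase, had 2.9, 2.97 and 2.7 FPKM. Mycl, at 0.821, 0.223 and 0.389 FPKM, was the 1 member that differed at least 2-fold among 24 tested, and 0 did without tumour 1.

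Among 36 receptor tyrosine kinases Axl, the receptor of Gas6, stood first with 102, 97.6 and 100.5 FPKM, or 100.04 ± 2.29 FPKM (mean ± SD, n = 3). Ephb4, Ryk, Fgfr1 and Ddr2 followed, with means between 22.4 and 28.1 FPKM. Pdgfrb had 20.7, 12.9 and 18.9 FPKM and Met, the receptor of hepatocyte growth factor, 8.82, 7.4 and 7.69 FPKM. Egfr, which is often amplified in human glioblastoma, had 3.53, 3.11 and 2.03 FPKM. Ntrk2 and Erbb4 had no read. In this list 0 of 26 tested receptors differed at least 2-fold between tumours.

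In a list of 35 cytokines, chemokines and growth factors the highest were Mif, given above, and Vegfa, the vascular endothelial growth factor, at 164, 161 and 161 FPKM. Inhba, a subunit of activin, had 88.1, 80.6 and 77.1 FPKM and Hbegf, a ligand of the epidermal growth factor receptor, 59.8, 59 and 50.7 FPKM. Il11 had 27.4, 39.7 and 36.8 FPKM, but Il6 of the same cytokine family was near 0 at 0.0561, 0.103 and 0.0626 FPKM. Genes of fetal tissue ranged widely in level, with Hmga1 and Hmga2, architectural chromatin proteins, at 533, 463 and 487 FPKM and 64, 71.7 and 74.6 FPKM, the RNA-binding protein Igf2bp2 at 40.8, 42.2 and 45 FPKM and the growth factor gene Igf2 at 0, 0.0175 and 0 FPKM.

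Genes of proliferation and of metabolism were high. All 25 mitosis genes and all 28 replication genes had a mean of at least 1 FPKM, with Top2a at 84, 89.9 and 90.1 FPKM and Rrm2 at 113, 111 and 114 FPKM, and 0 genes of either list differed at least 2-fold. All 22 hypoxia genes reached 1 FPKM and 0 differed at least 2-fold. They were led by Ddit4, an inhibitor of mTOR complex 1, at 281, 189 and 238 FPKM, with Slc2a1, the glucose transporter, at 92.7, 90.1 and 72.5 FPKM. The glycolytic genes Pgk1, Pkm and Ldha had 612, 657 and 617 FPKM, 624, 606 and 601 FPKM and 460.4, 475 and 482 FPKM, and Gapdh was the 1 of 20 glycolytic genes called. The median coefficient of variation (CV, SD over mean of CPM) was 5.38% in the mitosis list, 4.62% in the replication list, 9.95% in the hypoxia list and 6.59% in the glycolysis list, beside 9.67% over the 13222 genes tested and 6.15% over genes of 100 to 500 CPM.

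Protein folding genes were also high. Hspa5, the chaperone of the endoplasmic reticulum, had 321, 392 and 336 FPKM and Atf4, a factor of the integrated stress response, 209, 252 and 256 FPKM. Atf3, a stress-induced factor, had 6.37, 10.01 and 14.8 FPKM and differed 2.33-fold, with tumour 1 lowest and tumour 3 highest. Iron storage was represented by Fth1 at 356, 581 and 449 FPKM and Ftl1 at 357, 303 and 307 FPKM.

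The globin genes include the one the study is named for. Ngb had 0.738, 0.669 and 0.382 FPKM, or 0.596 ± 0.189 FPKM (mean ± SD, n = 3), from 28, 23 and 13 reads, and its range of 1.89-fold did not reach 2-fold. Cygb, cytoglobin, had 3.33, 1.48 and 2.06 FPKM. Adult haemoglobin genes of red blood cells were higher, with 22.5, 26.3 and 12.6 FPKM for Hba-a1 and 9.87, 16.1 and 8.31 FPKM for Hbb-bs, and tumour 2 was highest for both. Hba-a1 has a near-identical copy, Hba-a2, with which it can share reads.

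Xist, the RNA of the inactive X chromosome, had 1.29, 1.81 and 1.85 FPKM. The Y chromosome genes Ddx3y, Eif2s3y, Kdm5d and Uty had no read in any of the 3 libraries, and the 250 to 300 reads of a library on chromosome Y came from other gene IDs.

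Endothelial genes were read at low and similar levels in all tumours. Of 14 endothelial markers 10 reached 1 FPKM, and their summed level was 48.5, 48.0 and 47.5 FPKM in tumours 1, 2 and 3. Pecam1, the adhesion molecule CD31, had 3.11, 3.42 and 3.11 FPKM and Cdh5, the cadherin of endothelial junctions, 3.85, 3.72 and 4.43 FPKM. In this list 0 of 14 differed at least 2-fold. Pericyte and smooth muscle markers reached 1 FPKM in 6 of 11 cases, among them Rgs5 at 2.03, 2.87 and 3.5 FPKM and Acta2 at 4.95, 6.13 and 5.55 FPKM, and Cspg4 and Pdgfrb of that list can come from other cells. Among 8 of these markers that were tested the median range was 1.62-fold, and Des, desmin, differed at least 2-fold. Of 12 fibroblast markers 7 reached 1 FPKM, but Pi16 and Dpt, which mark fibroblasts of the connective tissue, were near 0.

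Macrophage markers made the highest of the 21 marker lists by median percentile, at 64.0. C1qa, a chain of complement C1q, had 25, 51.5 and 42.4 FPKM and Lyz2, lysozyme, 10.5, 46.7 and 27.9 FPKM. Csf1r, the receptor for macrophage growth factor, had 2.27, 3.79 and 2.93 FPKM and Adgre1, F4/80, 1.05, 2.54 and 1.66 FPKM. Of 17 markers 14 reached 1 FPKM. Among microglial genes Sall1 had no read and P2ry12 was at 0.196, 0.374 and 0.239 FPKM, while Tmem119 had 2.37, 5.46 and 3.35 FPKM.

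Lymphocyte and granulocyte genes were scarcer. T and NK cell markers were led by the granzymes, with 3.43, 6.92 and 0.604 FPKM for Gzma and 1.33, 5.48 and 0.776 FPKM for Gzmb, and the T cell receptor constant region Trac had 0.437, 0.643 and 0.433 FPKM. In the B cell list Ms4a1, the antigen CD20, had no read and Igkc, an immunoglobulin light chain, had 2.73, 1.04 and 2.38 FPKM. Of 11 neutrophil markers 2 reached 1 FPKM, of 9 dendritic cell markers 1, and of 6 mast cell and 8 adipocyte markers 0.

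The spread among the 3 tumours was small for most genes. The correlation of log2 CPM across the 13222 genes with a mean of at least 1 CPM was 0.982 between tumours 1 and 2, 0.989 between tumours 1 and 3 and 0.986 between tumours 2 and 3, a description across genes, which are not independent. The biological coefficient of variation, edgeR's estimate of the spread beyond read counting, was 0.142. Counting error alone was exceeded in 8025 genes, or 60.7% (edgeR likelihood ratio test with a Poisson model, adjusted p under 0.05).

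The 885 genes that also differed at least 2-fold are called genes from here on. Of all genes tested 213 were called with tumour 1 highest (1.61%), 433 with tumour 2 highest (3.27%) and 239 with tumour 3 highest (1.81%). Without that threshold of 2-fold, tumour 1 was highest in 36.7% of genes, tumour 2 in 34.9% and tumour 3 in 28.5%. With tumour 1 left out the other 2 tumours differed in 394 genes, with tumour 2 left out in 373 and with tumour 3 left out in 606.

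Spread depended on level. Among genes with 1 to 5 CPM the median CV was 23.3% and 23.8% of genes were called, where counting error alone would give a CV of 15.4%. Among genes with 20 to 100 CPM the median CV was 7.81% and 1.08% were called. From 500 CPM upward 0 of 239 genes were called and the median CV was 5.57%, against 0.806% from counting. Non-coding genes were called more often than the 5.82% of protein-coding genes, with 17.4% of long intergenic RNAs and 12% of antisense RNAs, at levels that were not matched.

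**Figure D4:**
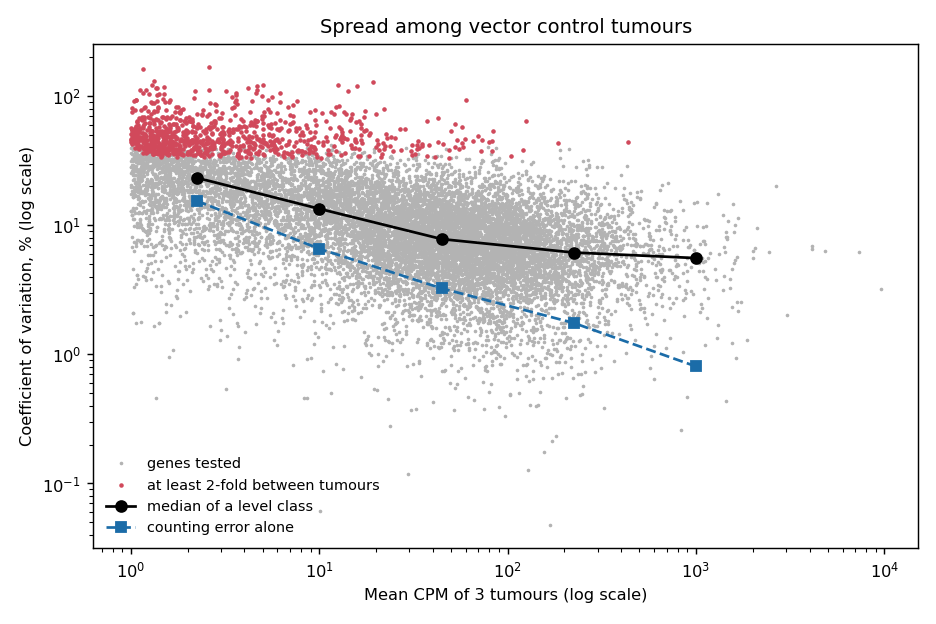
Coefficient of variation of CPM among the 3 vector control tumours (vertical axis, log scale) against mean CPM (horizontal axis, log scale) for 13222 genes, with the 885 called genes in red. The median of each level class falls from 23.3% to 5.57% and stays above the blue line for counting error alone.

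Interferon response genes were highest in tumour 2 in 32 of 32 members tested, where 34.9% of all genes were. The list has 37 members, and with tumour 2 left out 30 passed the filter of 1 CPM. Some of the 32 were thus tested only through their level in tumour 2, which favours a count with tumour 2 highest. Of the 32, 25 differed at least 2-fold, beside 3.27% of all genes called with tumour 2 highest. Their mean score, the average log2 CPM centred on the 3 tumours, was -0.53, 0.83 and -0.29 in tumours 1, 2 and 3. Igtp, an immunity-related GTPase, had 2.07, 15 and 1.68 FPKM, or 4.16, 30.1 and 3.37 CPM, a range of 8.87-fold (edgeR likelihood ratio test against counting error, adjusted p = 2.3e-152). Gbp2, a guanylate-binding protein, had 4.49, 16.9 and 4.99 FPKM and Isg15, a ubiquitin-like modifier, 7.33, 13.1 and 4.09 FPKM. In all 3 genes tumour 2 was highest, and tumours 1 and 3 lay below it in no common order.

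Factors of the receptor pathway were among the members. Stat2 and Irf9, transcription factors that act downstream of interferon receptors, had 1.26, 2.17 and 1.76 FPKM and 4.16, 6.17 and 4.45 FPKM. Both stayed under 2-fold. Irf1 had 18.3, 23.9 and 16.7 FPKM and Bst2, tetherin, which was the highest member of the list, 48.2, 91.4 and 40.7 FPKM. Ifit3, Ifit2 and Oas1a, antiviral proteins, had 0.442, 2.5 and 1.45 FPKM, 0.717, 2.41 and 1.55 FPKM and 0.771, 1.7 and 1.13 FPKM, and in these 3 tumour 1 was lower than tumour 3. With tumour 2 left out 6 of 30 tested members differed at least 2-fold, with tumour 1 left out 19 of 35 and with tumour 3 left out 22 of 33.

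Promoters of these genes were searched for the interferon-stimulated response element, a sequence known from promoters of genes that interferon induces, written here as GAAANNGAAA on either strand, with overlapping matches counted. RefSeq promoter windows of GRCm38.p6, from 250 bases before to 50 bases after the start site, were given for 25 members, and 15 of them held a match, while 3.99% of the 27025 genes in the table did. A match was found in 11 of the 16 called members among them. The list was chosen for genes that answer interferon, so a share above that of all genes follows from this choice. It says nothing of these tumours. The 6 called members of highest level that held a match are shown, 100 bases of each window from 5′ to 3′ on the strand of the gene, with matches in capitals.
Bst2 (chr8:71537548-71537647, minus strand): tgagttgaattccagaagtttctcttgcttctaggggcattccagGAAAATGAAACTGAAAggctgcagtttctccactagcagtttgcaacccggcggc
Gbp2 (chr3:142620559-142620658, plus strand): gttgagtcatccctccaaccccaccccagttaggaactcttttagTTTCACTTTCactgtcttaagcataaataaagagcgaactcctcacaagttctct
Isg15 (chr4:156200842-156200941, minus strand): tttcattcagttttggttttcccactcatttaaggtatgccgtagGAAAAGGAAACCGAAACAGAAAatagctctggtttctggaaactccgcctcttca
Igtp (chr11:58199477-58199576, plus strand): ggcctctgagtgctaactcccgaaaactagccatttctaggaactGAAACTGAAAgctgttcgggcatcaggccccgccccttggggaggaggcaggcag
Irgm1 (chr11:48871396-48871495, minus strand): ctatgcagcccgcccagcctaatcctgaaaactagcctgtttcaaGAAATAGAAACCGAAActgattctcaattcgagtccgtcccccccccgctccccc
Gbp3 (chr3:142559954-142560053, plus strand): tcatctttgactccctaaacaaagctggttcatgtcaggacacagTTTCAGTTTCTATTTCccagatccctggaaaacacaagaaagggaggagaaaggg
The capitals read as the element in Bst2, Isg15, Igtp and Irgm1 and as its reverse complement in Gbp2 and Gbp3. In Isg15 there were 3 overlapping matches, the first starting 78 bases before the start site, and in Gbp2 and Igtp there was 1. A match of letters does not show that a factor bound there, and binding was not measured.

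Genes of antigen presentation were also highest in tumour 2. All 16 MHC class I genes tested were highest in tumour 2, and 8 of them differed at least 2-fold. The light chain B2m had 238, 398 and 239 FPKM and the heavy chain H2-K1 27.4, 43.3 and 26.5 FPKM, neither of which reached 2-fold. Tap1, the peptide transporter, had 1.36, 3.04 and 0.851 FPKM and Nlrc5, the transactivator of class I genes, 0.187, 1.06 and 0.304 FPKM, a range of 5.62-fold. Heavy chain genes such as H2-Q6, H2-Q4 and H2-Q7 resemble each other and may share reads. With tumour 2 left out 1 of 16 differed at least 2-fold, without tumour 1 it was 7 and without tumour 3 it was 6.

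MHC class II genes, which macrophages, dendritic cells and B cells use, were highest in tumour 2 in 7 of 7 tested cases, and 2 differed at least 2-fold. These were Cd74, the invariant chain, at 29.7, 60.04 and 33.9 FPKM and H2-Eb1 at 10.5, 24.3 and 10.1 FPKM. With tumour 2 left out 0 of 7 did, and with tumour 1 left out 1 of 7.

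Chemokine genes and T and NK cell genes were also highest in tumour 2. Cxcl9 and Cxcl10, chemokines induced by interferon gamma, had 1.4, 12.6 and 1.9 FPKM and 1.43, 5.96 and 1.78 FPKM, and Ccl5 had 1.51, 7.62 and 2.11 FPKM. All 4 T and NK cell markers tested, Gzma, Gzmb, Prf1 and Lck, were highest in tumour 2 and differed at least 2-fold. With tumour 2 left out only 3 markers passed the filter of 1 CPM, and 1 of these differed at least 2-fold. The count of 4 thus rests in part on the level in tumour 2 itself. Ifng, the gene of interferon gamma, was too low to be tested, with 0.0351, 0.619 and 0.117 FPKM from 1, 16 and 3 reads. The summed level of the 18 markers was 7.50, 20.8 and 3.84 FPKM, and Klrb1c was at 0 in all tumours. In the B and plasma cell list of 10 markers the 2 genes tested went the other way. Igkc and Igha, an immunoglobulin heavy chain at 0.80, 0.169 and 0.304 FPKM, were highest in tumour 1, lowest in tumour 2 and differed at least 2-fold. With tumour 1 left out 0 markers of the list passed the filter of 1 CPM, so both were tested only through their level in tumour 1. The part of these cells in the interferon and MHC differences was not tested.

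Macrophage genes were highest in tumour 2 and lowest in tumour 1 by their sum. Of 16 tested, 13 were highest in tumour 2 and 3 in tumour 3, 8 differed at least 2-fold, and the summed level of the 17 markers was 137, 268 and 192 FPKM. Lyz2 had the widest range, 4.43-fold. With tumour 1 left out 0 of 16 markers differed at least 2-fold, whereas 3 of 16 did without tumour 2 and 7 of 15 without tumour 3. Their part in the differences of other genes was not tested.

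Genes of immune evasion included 6 of 12 tested that differed at least 2-fold, all highest in tumour 2. Cd274, the checkpoint ligand PD-L1, had 1.2, 3.29 and 1.3 FPKM and Arg1, arginase, 2.45, 9.85 and 3.91 FPKM. Nos2, the inducible nitric oxide synthase of activated macrophages, had 0.103, 1.34 and 0.333 FPKM, a range of 12.5-fold. Cd276 and Cd47, which shield cells from T cells and from phagocytosis, had 23.1, 19.3 and 19.8 FPKM and 14.1, 15.1 and 13.1 FPKM, and neither reached 2-fold. With tumour 2 left out fewer members passed the filter of 1 CPM, and 0 of these 10 differed at least 2-fold.

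Among the 30 genes of this cytokine and growth factor list that were tested 12 differed at least 2-fold, and 9 of these were highest in tumour 2. Without tumour 1 it was 6 of 30 and without tumour 2 it was 6 of 29. Ccl2, a chemokine for monocytes, had 6.26, 28.9 and 11.3 FPKM. The growth factors Areg and Ereg, ligands of the epidermal growth factor receptor, had 5.75, 15.3 and 11.8 FPKM and 4.65, 11.5 and 9.42 FPKM, and Lif had 3.28, 9.99 and 5.3 FPKM. Gdf15 was the 1 member called with tumour 3 highest, at 3.46, 8.17 and 14.8 FPKM. The highest members Mif, Vegfa and Inhba were level across tumours.

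Skeletal muscle genes also differed between tumours. Their summed level was 7.38, 20.2 and 9.47 FPKM over 16 markers, and 5 of 7 tested differed at least 2-fold with tumour 2 highest. Without tumour 2 only 4 markers passed the filter of 1 CPM, and 2 of these differed at least 2-fold. Some of the 7 were thus tested only through their level in tumour 2, which favours a count with tumour 2 highest. Acta1, the actin of skeletal muscle fibres, had 0.177, 7.18 and 1.85 FPKM and Mylpf, a myosin light chain of fast fibres, 0.556, 3.11 and 0.572 FPKM. Des, desmin, which belongs to the pericyte and smooth muscle list and not to this one, had 0.181, 2.82 and 0.756 FPKM. Ckm was near 0 at 0, 0.086 and 0.0348 FPKM, and Myh7 and Tnnc2 had no read. The part of muscle RNA in other differences between the tumours was not tested.

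**Figure D5:**
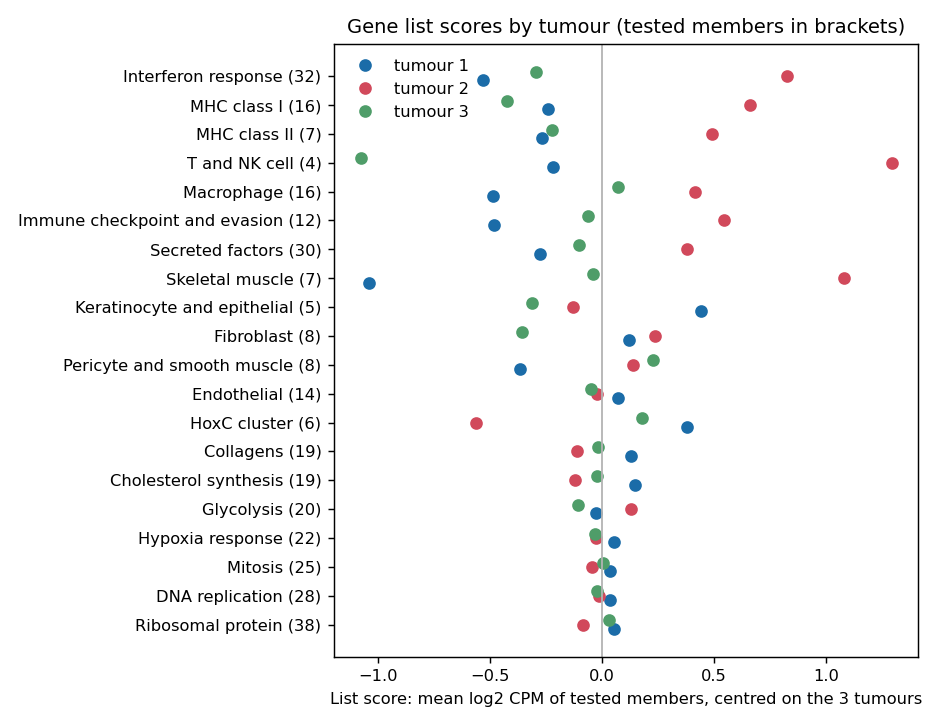
List score of each vector control tumour (horizontal axis, mean log2 CPM of the tested members centred on the 3 tumours) for 20 gene lists (rows, tested members in brackets). Tumour 2 lies to the right in interferon, MHC, T and NK cell and muscle lists, and the 3 tumours lie close together for mitosis, replication and ribosomal protein genes. Ribosomal protein genes scored 0.053, -0.085 and 0.033 in tumours 1, 2 and 3, and 1 of 38 was highest in tumour 2.

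The genes that set each tumour apart were then taken from 225 called genes with a mean of at least 5 CPM, predicted genes and pseudogenes left out. Tumour 1 was highest in 66 of them, tumour 2 in 132 and tumour 3 in 27. Tumour 1 was lowest in 120, tumour 2 in 53 and tumour 3 in 52. In tumour 2 the gene furthest above the other tumours was Kcnab2, a subunit of voltage-gated potassium channels, with 3.52, 47.7 and 6.55 CPM. C3, the central complement protein, had 1.17, 12.2 and 1.76 CPM, and Dcn, the matrix proteoglycan decorin, 6.73, 32 and 3.73 CPM. The interferon-inducible GTPases Irgm2 and Ifi47 belonged to the same 10 genes, with 3.34, 15.6 and 3.78 CPM and 2.71, 12.6 and 3.27 CPM. Msi1 and Megf6 were furthest below the other tumours there, with 22.4, 2.5 and 19.6 CPM for Megf6.

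In tumour 1 the genes furthest above the others belonged to other classes. Nrep, a gene studied in regenerating neurons, had 216, 63.1 and 97.6 CPM and Cadm4, a cell adhesion molecule, 94.7, 36.7 and 39.4 CPM. Fam214a had 75.6, 28.9 and 23.4 CPM and Pik3r3, a regulatory subunit of phosphoinositide 3-kinase, 12.5, 4.34 and 4.84 CPM. The cadherin Cdh10 and the semaphorin Sema6c were also among the 10. Cx3cl1, the membrane-bound chemokine fractalkine, and Gfra2, a receptor of neurturin, were furthest below, with 1.26, 13.8 and 6.85 CPM and 2.71, 12.4 and 10.3 CPM.

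Tumour 3 was highest in the fewest of the 225 genes, 27, whereas among all 885 called genes tumour 1 was, with 213 against 239 for tumour 3. Vldlr, a lipoprotein receptor, had 5.15, 6.19 and 13.1 CPM, Dusp8, a phosphatase of MAP kinases, 11.3, 15.1 and 28.9 CPM and Ebf1, a transcription factor of B cells and of stroma, 10.7, 15.1 and 24.8 CPM. Anpep, the aminopeptidase CD13, and H2-Q6 were among those furthest below, with 50.5, 43.4 and 20.3 CPM for Anpep.

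At the other end, 2583 protein-coding genes, predicted genes left out, had at least 100 CPM, and the 10 protein-coding genes of smallest spread among them had a CV of at most 0.407%. Ints3, a subunit of the Integrator complex, had 128, 128 and 128 CPM. Arhgdia, which encodes a GDP dissociation inhibitor, had 836, 833 and 837 CPM, and Pcna, the sliding clamp of DNA replication, 325, 326 and 323 CPM. These genes were picked for their small spread, which lies below the median of 1.75% that counting error alone gives for genes of 100 to 500 CPM, so their order is a description of these 3 libraries.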

How the data were processed

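The 3 vector control libraries were used, and 3 columns of the count matrix, from the other group, were left out. RNA was isolated by Trizol and a TruSeq RNA kit was used for the libraries, per the labels' protocols. This kit keeps no strand, so overlapping genes on opposite strands can share reads. The submitters' processing notes list Bowtie 0.12.2, mm8 and mm10 and do not say how each was used. The counter and the annotation are not stated there. Read counts as deposited by the authors are whole numbers per Ensembl gene without normalization. A table of FPKM values per sample was also deposited. In 19393 genes the deposited FPKM equalled the count times a gene factor and a library factor to within 2.83e-07 (relative). GENCODE release 21 for mouse (GRCm38) named 54409 of 54532 IDs, and the 123 others took 0.0207% to 0.0251% of the reads.

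CPM were computed with TMM scaling in edgeR 4.0.16 (R 4.3.3). With 1 group no condition was compared. Genes of at least 1 mean CPM were tested with a likelihood ratio test, tumour as factor, dispersion 0 (Poisson) and Benjamini-Hochberg adjustment, and called at adjusted p under 0.05 and a range of at least 2-fold, with counts raised by 0.5. List scores used a prior count of 2. Copies were sought with blastn 2.17.0 (95% identity, 250 bases), for genes picked with their values in view. The 54 gene lists (21 of markers, 33 of programs) and the members were chosen with earlier results of these data known. The rule for naming covered the 30 highest coding and 10 highest non-coding genes, and called genes of at least 5 CPM furthest from the nearest tumour. It also covered up to 6 top members and all silent members of a list, and the 10 most even genes of at least 100 CPM. All members of the sex chromosome, globin, tumour suppressor, receptor kinase and oncogene lists fell under it too. Only some of the genes under this rule are named above. Predicted genes and pseudogenes were left out of the ranked picks. All other genes and list members were named after their values were seen, and some genes are not reported here. On simulated counts with counting error alone, 67 of 67 genes changed 2.5-fold and 3 of 13019 unchanged genes were called. The changed genes were drawn from those of at least 5 CPM, so detection below that level was not simulated. Alternatives were other scalings, filters, folds and prior counts, and leaving out each tumour.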

Additional observations from a re-analysis of the deposited data

How the results depend on the processing

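The 885 genes that differed at least 2-fold became 2089 with no filter beyond 1 read, 242 with a mean of at least 5 CPM, 1967 at 1.5-fold and 262 at 3-fold. With 1 tumour left out the count was 373 to 606, from 2 tumours instead of 3, and the biological coefficient of variation was 0.121 to 0.172. Of 270 recomputed list percentiles 24 moved beyond their spread, and of 129 recomputed score gaps 2 did. None of the 129 gaps, each the highest-scoring tumour minus the mean of the others, changed sign under the other scalings and prior count. Each gap was positive by the choice of tumour. Another scaling shifted the gaps of a given tumour by nearly the same amount in all lists, so they are not separate checks. Gaps were not recomputed with a tumour left out. No paired analysis was possible because only 1 group was described. DESeq2's test was not run for the same reason, and its size factors served as an alternative scaling. Depth limits genes under 5 CPM, where counting error is a large part of the spread.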
